A study of Rattus norvegicus with 6 samples.

Results

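The genes described here move salt, chloride and bicarbonate across the lining of the colon. They are 10 genes, Scnn1a, Scnn1b, Scnn1g, Slc26a3, Slc9a3, Slc9a2, Slc4a4, Slc12a2, Cftr and Atp12a, of the 15168 genes that could be named on the array, and were chosen by name because the rat strain under study is sensitive to salt. Earlier results of these data were known at that choice, so the shares of members set beside all probes below are descriptive. The accessions of 14 of the 30367 probes matched them, with a pair of probes each for Slc9a3, Slc4a4, Slc12a2 and Cftr. RNA was taken from the colon of 3 male rats of the S.LEW congenic strain (here C1 to C3) and 3 male S rats (S1 to S3), and each rat had its own single-color Agilent array. S is the inbred Dahl salt-sensitive rat (SS/Jr), which is hypertensive. The S.LEW congenic strain, S.LEW(10)x12x2x3x5, is the same background with a short segment of chromosome 10 from the normotensive Lewis rat, so that it is 1 congenic line. From earlier work, the study reports a higher blood pressure than in S for a congenic strain with Lewis alleles in this segment. All rats of both strains ate a low salt diet (0.3% NaCl), had been given AOM (azoxymethane, which causes colon tumors) by 2 injections at a dose of 15 mg/kg, the earlier at 6 weeks of age, and were 30 weeks old at harvest. There was no group without AOM.

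The colon takes up sodium and chloride and releases bicarbonate and, on demand, chloride. Sodium enters the surface cells through the epithelial sodium channel (ENaC), built from the subunits of Scnn1a, Scnn1b and Scnn1g and induced by aldosterone in the distal colon, and through the sodium/proton exchangers of Slc9a3 (NHE3) and Slc9a2 (NHE2), which work alongside the chloride/bicarbonate exchanger of Slc26a3 (DRA). Secretion uses the basolateral cotransporters of Slc12a2 (NKCC1), which loads chloride, and Slc4a4 (NBCe1), which loads bicarbonate, and the apical anion channel of Cftr. Atp12a encodes the colonic proton/potassium pump.

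The bases before the start of 4 member genes are shown, for 3 members that were higher in the congenic rats and 1 that was not, so that the regions can be compared. They are the 250 bases upstream of the RefSeq start in GRCr8, 5′ to 3′ on the strand of the gene: Slc4a4 at chr14:19468283-19468532 on the minus strand, Slc26a3 at chr6:53751165-53751414, Cftr at chr4:47527379-47527628 and Scnn1b at chr1:185861126-185861375, the last 3 on the plus strand. Capitals mark matches on either strand to TATAA (the core of the TATA box), to the GC box GGGCGG or its reverse complement, to the HNF1 half-site GTTAAT or to the steroid receptor half-site AGAACA, and no such matches overlapped in these 4 regions.
Slc4a4: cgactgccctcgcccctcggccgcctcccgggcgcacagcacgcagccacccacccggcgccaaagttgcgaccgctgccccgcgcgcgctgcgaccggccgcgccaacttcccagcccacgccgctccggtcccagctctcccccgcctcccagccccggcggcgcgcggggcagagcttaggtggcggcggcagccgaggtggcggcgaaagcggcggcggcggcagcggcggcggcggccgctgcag
Slc26a3: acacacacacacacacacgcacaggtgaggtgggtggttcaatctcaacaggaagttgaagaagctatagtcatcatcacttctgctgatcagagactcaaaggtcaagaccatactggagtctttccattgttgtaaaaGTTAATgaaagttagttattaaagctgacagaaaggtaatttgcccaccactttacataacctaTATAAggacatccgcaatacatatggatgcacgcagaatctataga
Cftr: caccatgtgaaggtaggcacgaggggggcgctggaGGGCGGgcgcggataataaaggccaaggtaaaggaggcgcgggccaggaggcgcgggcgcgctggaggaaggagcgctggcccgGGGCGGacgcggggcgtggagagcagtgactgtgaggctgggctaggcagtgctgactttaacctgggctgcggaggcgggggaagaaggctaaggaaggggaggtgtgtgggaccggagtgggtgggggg
Scnn1b: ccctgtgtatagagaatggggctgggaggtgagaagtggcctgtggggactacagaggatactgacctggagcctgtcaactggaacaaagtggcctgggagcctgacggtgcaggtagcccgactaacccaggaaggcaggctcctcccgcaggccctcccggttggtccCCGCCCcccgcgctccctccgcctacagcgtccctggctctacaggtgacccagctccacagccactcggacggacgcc
The region of Slc26a3 held 40.4% G and C bases with 1 TATAA and 1 GTTAAT. Those of Slc4a4, Cftr and Scnn1b were rich in G and C, at 80.8%, 69.2% and 65.6%, with 0, 2 and 1 GC boxes, where the median of 33469 such regions was 51.2%. TATAA occurred in 24.0% of those regions, GGGCGG in 30.5%, GTTAAT in 6.45% and AGAACA in 17.5%. The letters describe the regions and do not show binding. The 9 members with a promoter entry lay on chromosomes 1, 4, 6, 9, 14, 15 and 18, and none on chromosome 10, the chromosome of the Lewis segment.

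The arrays differed in ways that bear on these genes. The median intensity of a spot ran from 214 to 291 in the congenic rats and from 219 to 594 in the S rats, with 73.8% to 87.6% of the spots well above background and no spot saturated. The sample labels do not name slides, which were inferred here from the scan date of each array. By that date C1 shared slide 1 with all S rats, and C2 and C3 lay on slide 2. As slide 2 held no S rat, a fit with the slide as a block takes its strain difference from C1 against the S rats. That fit thus rests on 1 congenic rat. Across probes the array of S2 had correlations of 0.966 to 0.975 with those of the congenic rats, but of 0.899 with S1 and 0.936 with S3. The tissue was labelled as colon and held epithelium by its epithelial markers, of which all 9 tested were well above background on every array. These markers do not tell the colon from other parts of the gut. The mean of these markers on the log2 scale was 13.28 to 13.86 in the congenic rats and 12.58 to 13.09 in the S rats, a difference of 0.79, with 1 of the 9 past the cut-offs below and all 9 with a log2 fold change above 0. The mean of the 4 tested lymphoid markers was 6.71 to 7.10 in the congenic rats and 6.94 in S2, but 12.88 in S1 and 12.69 in S3, and the other lymphoid probes (Cd3e, Cd79b, Cr2 and Cd2) were above background in S1 and S3 alone. The 7 tested skeletal muscle markers averaged 7.14 to 7.72 in the congenic rats and 8.22 to 9.61 in the S rats. Smooth muscle markers, 7 tested, averaged 16.04 to 16.24 in the congenic rats and 16.33 in S2, but 14.12 in S1 and 15.14 in S3. Their mean was thus 0.92 higher in the congenic strain, with all 7 log2 fold changes above 0 and 1 of them past the cut-offs. In whole tissue, fewer cells of a type and less RNA per cell cannot be told apart, and the part of these levels in the results that follow was not tested beyond the values given beside them. The sources used here do not say whether the RNA included tumor tissue. The study counted more colon tumors in the congenic strain than in S, and the part of tumor content was not tested.

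Among members, Slc4a4, Cftr, Slc12a2 and Slc26a3, which carry anions and bicarbonate, each had a probe past the cut-offs below, higher in the congenic strain. The 3 subunits of the sodium channel had none. The test was limma, which borrows strength across probes, and a probe was called at the study's cut-offs of an unadjusted p under 0.05 and a change of at least 2-fold. It was run on the 23972 probes for which 3 or more of the 6 arrays were well above background, and 13 of the 14 member probes, of 9 genes, were tested. Of these 13, 6 probes of 4 genes (Slc4a4, Cftr, Slc12a2 and Slc26a3) were called higher in the congenic rats and 0 were called lower, where 3.23% of all tested probes were called higher and 2.35% lower. By the brightest probe of each gene, the rule used for the lists below, 3 of the 9 genes were called higher, against 3.79% of all genes. Cftr was not called by that rule. Every congenic rat stood above every S rat at 9 of the 13 member probes and below at 0, against 12.4% and 5.29% of all probes. Also 9 of the 13 had an unadjusted p under 0.05, against 13.0% of all probes. After Benjamini-Hochberg adjustment no member passed 0.05 (0.0% of all probes did), with adjusted p values from limma of 0.193 to 0.999. Without adjustment limma gave 3107 probes under 0.05 and the methods' t-test 2585, and the methods' t-test also called no probe after adjustment. The median log2 fold change was 0.63 over the 9 member genes and 0.03 over the 12396 genes tested, taking the brightest probe of each. As the epithelial markers were also higher in the congenic rats, each member was given relative to their mean as well, a comparison added after the data were seen. It takes the same 0.79 from every log2 fold change on the array and moves the median of all genes to -0.76, with 0.4% of all probes then called higher and 28.7% lower, so that it compares a gene with the epithelial markers and leaves the order of the genes as it was.

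**Figure D1:**
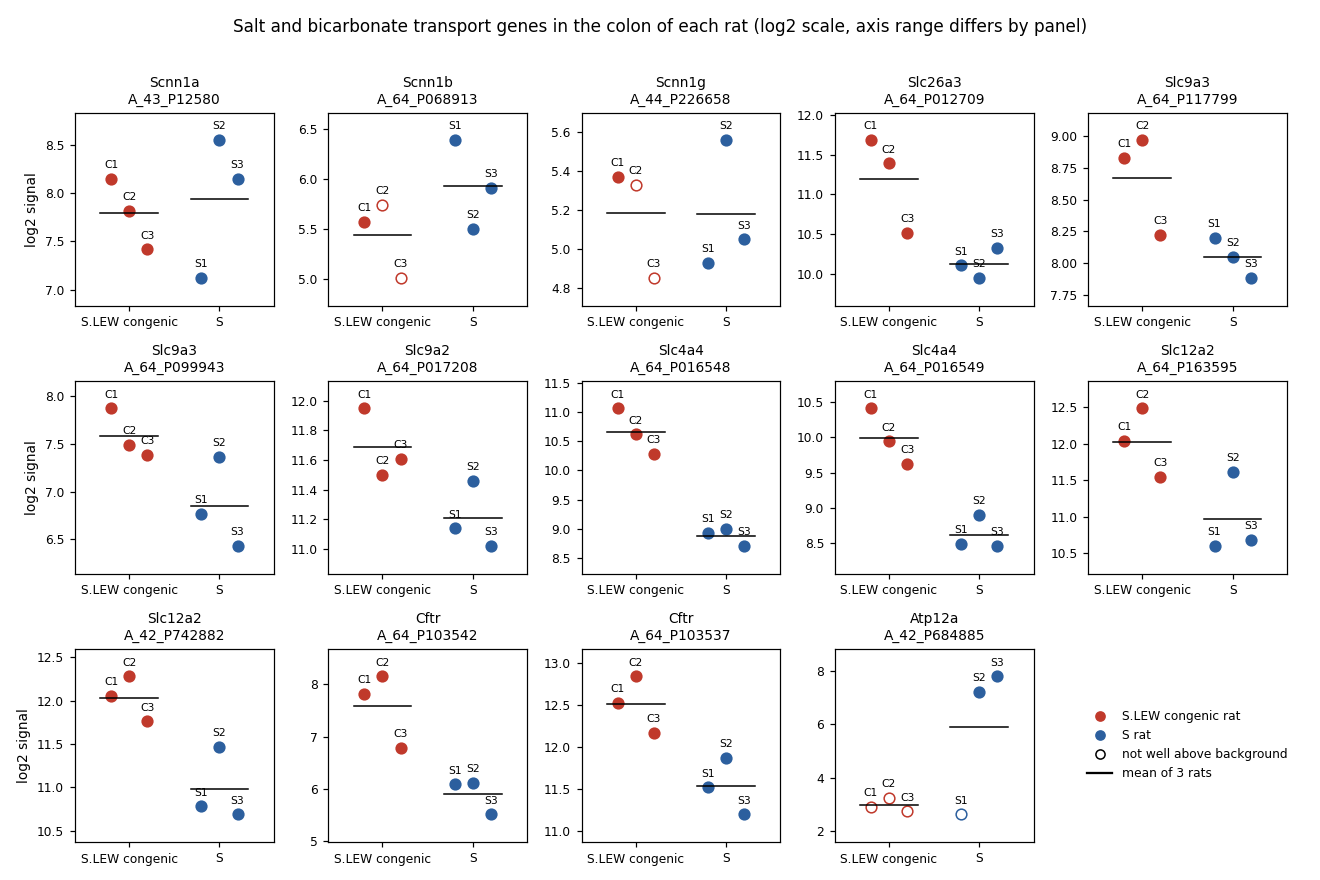
Log2 signal (vertical axis, its range differing by panel) of each of the 14 member probes in the 3 S.LEW congenic rats (red) and the 3 S rats (blue), with the mean of each strain as a line and open circles where the probe was not well above background. The strains stand apart at both Slc4a4 probes (8.46 to 9.0 in the S rats and 9.62 to 11.07 in the congenic rats) and overlap for the 3 sodium channel subunits, and Atp12a is bright in S2 and S3 alone.

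Slc4a4 and Cftr had the largest differences among the tested members. At the brighter probe of Slc4a4, the sodium/bicarbonate cotransporter, C1, C2 and C3 had log2 signals of 11.07, 10.62 and 10.28, and S1, S2 and S3 of 8.93, 9.0 and 8.70. The lowest congenic rat thus lay well above the highest S rat, and S2, whose array as a whole resembled the congenic arrays, lay with the other S rats. The means were 10.66 ± 0.40 (SD, n = 3) and 8.87 ± 0.15 (SD, n = 3), a log2 fold change of 1.78 (95% interval 1.18 to 2.38), or 3.44-fold (adjusted p = 0.193 from limma). The dimmer probe gave 10.41, 9.94 and 9.62 in C1, C2 and C3 and 8.49, 8.90 and 8.46 in S1, S2 and S3, a log2 fold change of 1.37 (95% interval 0.74 to 2.01), or 2.59-fold. Both probes were called with each rat left out in turn, at 1.57 to 1.97 and 1.16 to 1.56 on the log2 scale. With the slide as a block they were 2.20 and 1.79, values set by C1, the highest congenic rat at both probes. Relative to the epithelial markers the differences were 0.99 (standard error 0.31, adjusted p = 0.085 from limma) and 0.58 (standard error 0.30, adjusted p = 0.147 from limma), so that neither met the 2-fold limit.

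Among the other genes of the array, 3 had the across-rat pattern most like that of the brighter Slc4a4 probe, out of 12395 searched by Pearson correlation over the 6 arrays. They were Alkbh6 (r = 0.9984), Acadl (r = 0.9974), an acyl-CoA dehydrogenase of fatty acid oxidation, and Gstp1 (r = 0.9971), a glutathione S-transferase. The 6 points share their arrays and split by strain, and the log2 fold changes of these genes, at 0.61, 0.70 and 0.87, were smaller than that of Slc4a4.

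Cftr, the apical anion channel that cyclic nucleotides open, was higher at both probes. Its dimmer probe had log2 signals of 7.81, 8.15 and 6.79 in C1, C2 and C3 and of 6.09, 6.12 and 5.52 in S1, S2 and S3, a log2 fold change of 1.67 (95% interval 0.73 to 2.61), or 3.19-fold (adjusted p = 0.266 from limma). C3, the lowest congenic rat, was still above S2, the highest S rat. The brighter probe had 12.52, 12.84 and 12.17 in the congenic rats and 11.52, 11.87 and 11.20 in the S rats. The log2 fold change was 0.98 (95% interval 0.34 to 1.62, adjusted p = 0.284 from limma), which at 1.97-fold fell just short of the 2-fold limit. It was called, at 1.15, without C3 and without S2. With another background correction (normexp) the dimmer probe gave 1.08 and the brighter 0.95. Relative to the epithelial markers the differences were 0.88 (standard error 0.37) and 0.19 (standard error 0.32), and limma gave adjusted p values of 0.0962 and 0.642.

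Slc12a2, the cotransporter that loads chloride for secretion, was read by a pair of probes of similar brightness. The first had log2 signals of 12.04, 12.49 and 11.55 in C1, C2 and C3 and of 10.60, 11.62 and 10.69 in S1, S2 and S3, and the second 12.05, 12.28 and 11.76 against 10.78, 11.47 and 10.69. S2 stood nearest to the congenic rats, above C3 at the first probe and below every congenic rat at the second. The log2 fold changes were 1.06 (95% interval 0.17 to 1.94) and 1.05 (95% interval 0.38 to 1.72), or 2.08-fold and 2.07-fold, for which limma gave adjusted p values of 0.348 and 0.277. These calls were less steady than those of Slc4a4. The first was lost without C1 (1.05), C2 (0.83), S1 (0.87) or S3 (0.91), and the second without C2 (0.92), S1 (0.95) or S3 (0.90). Both were also lost with the slide as a block (1.07 each), where C1 is the only congenic rat behind the estimate. Relative to the epithelial markers each differed by 0.26 (adjusted p = 0.535 and 0.514 from limma).

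For absorption, Slc26a3, the chloride/bicarbonate exchanger of the surface cells, had log2 signals of 11.68 in C1, 11.39 in C2 and 10.52 in C3 and of 10.11, 9.95 and 10.33 in S1, S2 and S3. The strains did not overlap, although C3 lay nearer to S3 than to the other congenic rats. The log2 fold change was 1.07 (95% interval 0.28 to 1.86), or 2.10-fold (adjusted p = 0.321 from limma), and the call was lost without C1 (0.83), C2 (0.97) or S2 (0.98). With the slide as a block it was 1.55, a value set by C1, the highest congenic rat. Relative to the epithelial markers the difference was 0.28 (standard error 0.34, adjusted p = 0.513 from limma).

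The sodium/proton exchangers differed by less than 2-fold. Slc9a3 had log2 signals of 8.83, 8.97 and 8.22 in the congenic rats and 8.20, 8.05 and 7.88 in the S rats at its brighter probe, and 7.87, 7.49 and 7.38 against 6.77, 7.36 and 6.43 at the dimmer one. C3 was only just above the highest S rat at each. The log2 fold changes were 0.63 (95% interval 0.03 to 1.23) and 0.73 (95% interval 0.03 to 1.43), and the adjusted p values from limma were 0.377 and 0.378. Slc9a2 had 11.95, 11.50 and 11.61 in C1, C2 and C3 and 11.14, 11.46 and 11.02 in S1, S2 and S3, a log2 fold change of 0.48 (95% interval -0.04 to 1.0, adjusted p = 0.400 from limma). Relative to the epithelial markers, the differences were -0.16 and -0.06 for Slc9a3 and -0.31 for Slc9a2, within their standard errors.

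**Figure D2:**
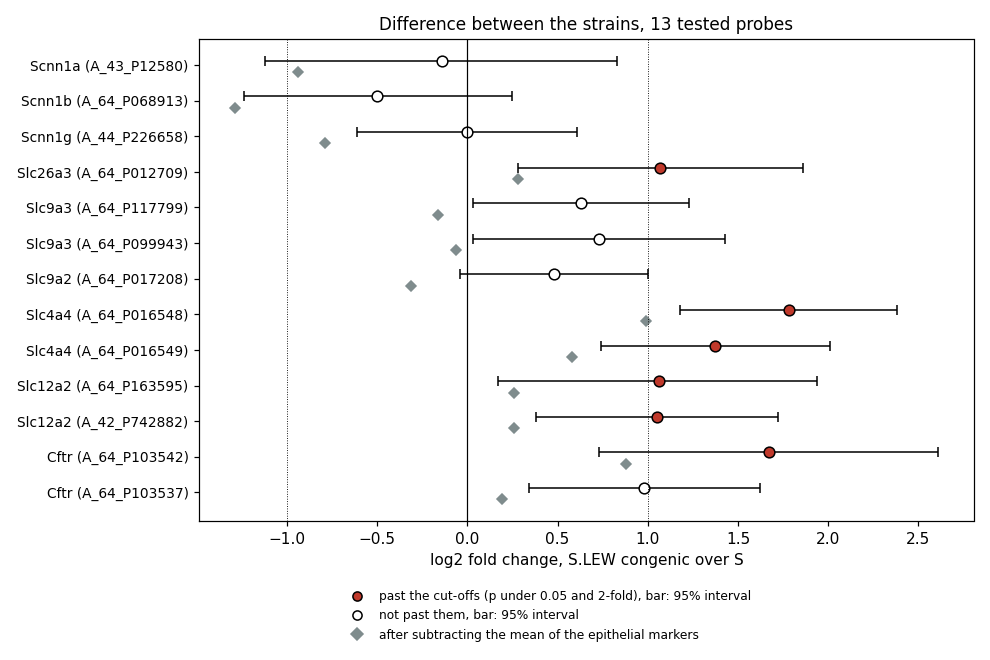
Log2 fold change of S.LEW congenic over S (horizontal axis) for the 13 tested member probes, with 95% intervals from limma as bars, filled circles for probes past the cut-offs and diamonds for the difference left after the mean of the epithelial markers was subtracted from each array. The 6 filled circles are all to the right of 1, from 1.05 to 1.78, and the diamonds lie 0.79 to the left of the circles.

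The subunits of the epithelial sodium channel did not separate the strains. Scnn1a, the subunit that every active channel needs, had log2 signals of 8.15, 7.82 and 7.42 in C1, C2 and C3 and of 7.12, 8.55 and 8.15 in S1, S2 and S3. The S rats spanned the whole range, with S1 lowest and S2 highest, and the log2 fold change was -0.14 (95% interval -1.12 to 0.83, adjusted p = 0.873 from limma). The interval leaves room for a change of 2-fold downward, and the sign turned, to 0.21, with the slide as a block. Scnn1b had 5.57, 5.74 and 5.01 in the congenic rats, of which C1 alone was well above background, and 6.39, 5.50 and 5.91 in the S rats. Its log2 fold change was -0.50 (95% interval -1.24 to 0.25, adjusted p = 0.487 from limma). Scnn1g, likewise above background on 1 of 3 congenic and 3 of 3 S arrays, had 5.37, 5.33 and 4.85 in the congenic rats and 4.93, 5.56 and 5.05 in the S rats. Its log2 fold change was 0.00 (95% interval -0.61 to 0.61, adjusted p = 0.999 from limma). The Scnn1g values that the authors deposited were higher in C2 and C3, at 5.82 and 5.57, and gave a log2 fold change of 0.40 (unadjusted limma p of 0.143), while no other of the 13 tested member probes differed by more than 0.008 on any array. Relative to the epithelial markers the log2 differences of the 3 subunits were -0.94 (standard error 0.34) for Scnn1a, -1.29 (standard error 0.39) for Scnn1b and -0.79 (standard error 0.29) for Scnn1g. Adjusted p values from limma were 0.0852, 0.085 and 0.0853. Scnn1b then passed the cut-offs downward, as did 28.7% of all probes.

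Atp12a, the proton/potassium pump, was well above background in S2 and S3 and in no other rat. Its probe had log2 signals of 2.91, 3.24 and 2.75 in C1, C2 and C3 and of 2.64 in S1, none of them well above background, and of 7.22 in S2 and 7.79 in S3. With 2 arrays above background it did not enter the test. Taking S1 at its measured signal, the congenic mean was lower than the S mean by at least 1.78-fold, a bound set on each congenic array against the dimmest probe that was still well above background. It rests on S2 and S3, since S1 itself read below every congenic rat. The bound was 5.47-fold without S1, 1.12-fold without S2 and could not be set without S3, and an exact permutation test of the 6 rats gave p = 0.40, two-sided. The same rats were high for some, but not all, of the genes listed as marks of the distal end of the gut. Hoxb13 had log2 signals of 12.54 in S2 and 12.04 in S3, well above background, and of 2.14 to 2.19 in the other rats, where it was not. Hoxd13 had 11.43 in S2 and 9.42 in S3, while the congenic rats had 6.55 to 6.75 and S1 had 5.04. Hoxd12 was also highest in S2 (13.30) and S3 (12.51), with 10.90 to 12.27 in the other rats. Hoxd10 did not follow them, with 11.09 in S2 but 10.01 in S3, below C1 (10.73), C2 (10.04) and C3 (11.71). The position along the colon from which each sample came is not given in the sources used here, and its part in the difference in Atp12a was not tested. Scnn1a, another gene of the distal colon, was highest in S2, with S3 level with C1. The other subunits of the sodium channel, both dim, did not follow Atp12a. Scnn1b was highest in S1 (6.39), with S2 (5.50) below C1 (5.57) and C2 (5.74). Scnn1g was highest in S2 (5.56), but S3 (5.05) was below C1 (5.37) and C2 (5.33).

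**Figure D3:**
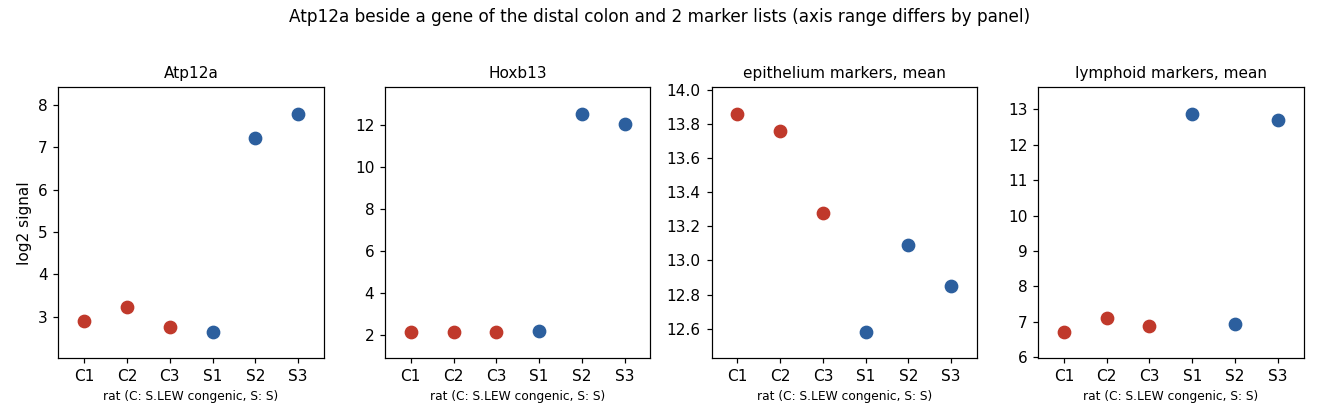
Log2 signal (vertical axis, its range differing by panel) of Atp12a, of Hoxb13 and of the mean of the epithelial and the lymphoid markers in each rat (horizontal axis, congenic rats in red and S rats in blue). Atp12a and Hoxb13 are high in S2 and S3, while the lymphoid mean is high in S1 and S3 and the epithelial mean is at or above 13.28 in the congenic rats alone.

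Because S2 stood apart from S1 and S3, each member was also set against S2 alone and against the other S rats. Relative to S2, the congenic mean was 1.66 and 1.09 higher on the log2 scale at the Slc4a4 probes, 1.46 and 0.64 at the Cftr probes, 1.25 for Slc26a3 and 0.40 and 0.56 for Slc12a2, and differed by -0.75 for Scnn1a, values from 1 rat with no test. With S2 left out, limma gave an adjusted p under 0.05 for 7 of the 13 member probes, all higher in the congenic rats, where 12.5% of all probes passed in that direction and 10.7% in the other. S2 was singled out because its array resembled those of the congenic rats, and the S rats that remain, S1 and S3, are the ones with lymphoid means of 12.88 and 12.69, so that the comparison is of strains that also differ in those markers. With any other rat left out, 0 member probes passed, and the smallest adjusted p of a member from limma was 0.176. Those that passed without S2 were both probes of Slc4a4 (1.84 and 1.51, adjusted p = 0.014 and 0.0193), of Slc12a2 (1.38 and 1.30, adjusted p = 0.0302 and 0.0156) and of Cftr (1.78 and 1.15, adjusted p = 0.0434 and 0.0307), and the dimmer probe of Slc9a3 (0.98, adjusted p = 0.0334). Slc26a3 did not pass (0.98, adjusted p = 0.107), and neither did the 3 subunits of the sodium channel (adjusted p from 0.122 to 0.778).

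The genes that work with these transporters were taken from 6 lists of colonic ion transport, with the brightest probe per gene. Over all 12396 genes, 3.79% were called higher and 2.64% lower. The sodium pump drives the whole system from the basolateral side. Of 12 tested genes of the pump and of basolateral cotransport, 2 were called higher and 1 lower, and the median log2 fold change was 0.47. Atp1b1, a beta subunit of the pump, had log2 signals of 14.68, 14.44 and 14.09 in C1, C2 and C3 and of 12.77, 13.89 and 13.53 in S1, S2 and S3, so that every congenic rat was above every S rat. It differed by 1.01 on the log2 scale (standard error 0.33, adjusted p = 0.336 from limma), which without C1, C2 or S1 was 0.87, 0.99 and 0.69 and not called. Fxyd5, a small regulator of the pump, went the other way (-2.51, standard error 1.0), with 11.72 in S1 and 11.49 in S3, whereas S2, at 7.94, fell among the congenic rats (7.54 to 8.27). It followed the lymphoid markers in this. Its log2 fold change was -3.73 without S2 and -1.84 without S1, where it was not called. Nor was it called with C1, C2, C3 or S3 left out, or with the slide as a block (-2.85).

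Of 13 tested genes that control the sodium channel, 1 was called higher and 0 lower, with a median log2 fold change of 0.40. It was Hsd11b2, the enzyme that inactivates glucocorticoids and so keeps the mineralocorticoid receptor for aldosterone. Its log2 signal was 12.28, 11.80 and 11.59 in C1, C2 and C3 and 10.69, 11.02 and 10.77 in S1, S2 and S3, with a log2 difference of 1.06 (standard error 0.24, adjusted p = 0.247 from limma). This was 0.87 without C1 and 1.0 without S1 and then not called. Among 16 tested genes of other chloride and bicarbonate transport, 1 was called higher and 1 lower, and the median was -0.05. Clcn2, a chloride channel of the basolateral membrane, was higher with 10.74, 10.13 and 9.98 in the congenic rats and 9.08, 9.29 and 8.76 in the S rats (log2 fold change 1.24, standard error 0.27, adjusted p = 0.239 from limma), a call kept with each rat left out. Slc4a8, a sodium-driven chloride/bicarbonate exchanger, was lower (-1.54, standard error 0.62), but only 1 of 3 congenic arrays read it well above background, and it gave -0.26 with the slide as a block, -2.18 without C1 and -0.88 without C2 and -0.30 with normexp, and its call held without C1 alone among the rats left out.

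Scaffolds and other sodium/proton exchangers had 1 of 10 tested genes called higher, 0 lower and a median of 0.02. The called gene was Nherf2, a scaffold that holds NHE3 at the apical membrane, with 8.06, 8.50 and 8.09 in C1, C2 and C3 and 6.94, 7.82 and 6.85 in S1, S2 and S3 (log2 fold change 1.01, standard error 0.31), and the call was lost without C2 (0.87), S1 (0.88) or S3 (0.84) and with the slide as a block (0.86) or normexp (0.80). In the guanylin and cyclic nucleotide list, which controls secretion through CFTR, 2 of 15 tested genes were called higher and 1 lower, and for 11 the log2 fold change was above 0, with a median of 0.73. Gucy2c, the receptor of guanylin and uroguanylin, had 11.79, 11.84 and 10.88 in the congenic rats and 9.59, 10.75 and 10.01 in the S rats. The difference of 1.38 on the log2 scale (standard error 0.40, adjusted p = 0.301 from limma) was called with each rat left out. Prkg2, the cyclic GMP-dependent kinase that phosphorylates CFTR, had 8.35, 8.44 and 8.15 in C1, C2 and C3, while S1, S2 and S3 had 7.47, 2.49 and 4.20, of which 2 were well above background. All congenic rats were above all S rats. The log2 fold change of 3.59 (standard error 1.17) rests in part on a signal of S2 that was not well above background. It was 1.64 with normexp, 4.97 without S1 and 2.48 without S2. It was not called without C1 (3.57) or S3 (3.33) or with the slide as a block (3.63). Guca2b, the hormone uroguanylin, was lower in the congenic rats, with 8.44, 8.24 and 8.20 against 9.59, 8.68 and 9.88, a log2 fold change of -1.09 (standard error 0.33) that was -0.99 without S1 and -0.84 without S3 and -0.95 with the slide as a block and -0.93 with normexp, and then not called. Of 4 tested short-chain fatty acid transporters 0 were called higher and 1 lower, Slc16a3, an exporter of lactate, with 8.71, 8.48 and 8.38 in the congenic rats and 10.18, 9.23 and 9.96 in the S rats (log2 fold change -1.26, standard error 0.29, adjusted p = 0.247 from limma), a call kept with each rat left out but not with the slide as a block (-1.08, unadjusted limma p of 0.0519). Over the 6 lists, 7 genes were thus called higher and 4 lower.

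**Figure D4:**
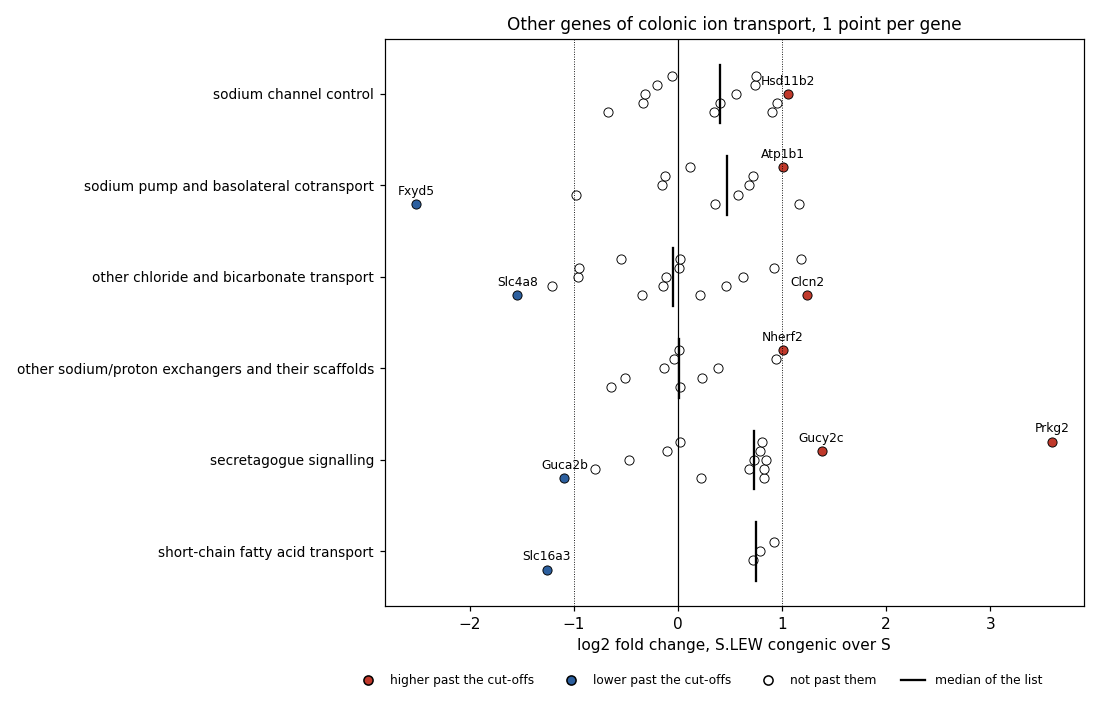
Log2 fold change of S.LEW congenic over S (horizontal axis) of the tested genes in 6 lists of colonic ion transport, 1 gene of the sodium pump list not drawn, with the median of each whole list as a bar, red for genes higher and blue for genes lower past the cut-offs. Prkg2 is drawn at 3.59, with 2 of its 3 S arrays well above background, and Fxyd5 at -2.51, and the medians run from -0.05 to 0.75.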

How the data were processed

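RNA from the colon of 3 S.LEW congenic and 3 S rats was read on single-color Agilent Rat 4x44K arrays (design build rn4), 1 per rat. The intensity of each spot was deposited by the authors as the processed signal of Agilent Feature Extraction 11.0.1.1, background-subtracted and not normalized between arrays. The authors also deposited log2 values of 23997 probes, quantile-normalized in GeneSpring with probes detected in at least 3 of 6 samples kept. These served as an alternative here, on a log2 scale whose column medians were 8.55 to 8.57 and which correlated at 0.9999 or more with the values used.

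Here spots flagged as outliers were left out, log2 intensities of the spots of a probe were averaged, and quantile normalization was applied over the arrays. The probes with at least 3 of 6 arrays well above background were tested with limma 3.58.1 in R 4.3.3 (lmFit, eBayes, no covariates; Benjamini-Hochberg over all tested probes). Called means an unadjusted p under 0.05 and a 2-fold change. The code was tested on simulated data with known changes. Exact permutation tests cannot give p below 0.10 with 3 rats against 3. The number of arrays limits the precision.

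The accession of each probe was looked up among RefSeq genes of GRCr8 for a symbol (18005 of 30367 probes). Members, lists and tests were chosen with earlier results of these data known. The text names all member probes, up to 3 called genes per list (the largest changes, above background on all arrays of the higher strain), the 3 genes most like Slc4a4, and markers as examples, and 1 gene that this rule names is not reported here. Among the marker lists whose mean levels are not given, median log2 fold changes were 0.44 (surface colonocyte, 7 genes tested), 0.43 (goblet cell, 6), -0.04 (proximal gut and small intestine, 7) and 1.15 (adipose, 4). Of their genes 0, 1, 2 and 2 were called higher, in that order, and 0 lower. Plots used matplotlib 3.10.9.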

Additional observations from a re-analysis of the deposited data

How the results depend on the processing

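The count of member probes called higher was 6, and was 6 with the deposited values, normexp, either other filter, the outlier spots kept and the replicate number as a block, 7 with 75th percentile scaling or array weights (not the same probes, since Slc26a3 was lost with array weights), 5 with the methods' t-test and 4 with the slide as a block or on slide 1 alone. Without each rat in turn the count was 3 (without C2) to 7 (without C3), and the count called lower was 0 throughout. With the mean of the epithelial markers subtracted, an alternative chosen after seeing the data, 0 were called higher and 1 lower, and over all probes 96 and 6879, since the subtraction takes 0.79 from every log2 fold change.

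Over all tested probes, called higher and lower, normexp gave 359 and 376, the methods' t-test 514 and 173, array weights (whose estimation stopped before convergence) 2088 and 1743, the slide as a block 551 and 224, slide 1 only 443 and 188, and the filter on all 6 arrays 679 and 342, against 775 and 563. Without each rat in turn the counts ran from 476 to 2398 higher and from 187 to 1725 lower, the lowest without S3 and the highest without S2. The cause was not tested.

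The sign of the smallest differences turned. For Scnn1a the log2 fold change was 0.21 with the slide as a block and on slide 1 only, and -0.55 to 0.16 with each rat left out. For Scnn1g it was -0.17 with 75th percentile scaling, -0.02 with normexp, -0.79 after the epithelial subtraction and -0.12 to 0.19 with each rat left out. After that subtraction it was -0.16 and -0.06 for Slc9a3 and -0.31 for Slc9a2, signs that the constant of 0.79 sets. Of 232 values of member probes under an alternative, 190 kept direction and side of the cut-offs, 22 fell below the cut-offs, 6 rose past them and 14 changed sign, 4 of them by that constant. Rats of equal replicate number had correlations of their deviations of -0.017, -0.129 and -0.059, which cannot show whether rats were paired. The study housed 1 S rat with 1 congenic rat per cage, and the labels do not give the cage. The replicate block left 6 member probes called, with 791 and 744 over all probes. Dim probes such as Scnn1b and Scnn1g, near background, are limited by their signal.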
